A study of Mus musculus with 12 samples.

Results

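Slc4a1, Kel, Epb42, Rhag, Ermap, Hbb-y, Hba-x, Alas2 and Klf1 are genes of the red blood cell lineage, and their levels were followed in E14.5 mouse lungs. These 9 genes were taken by symbol, and 8 of them had a probe set (a group of probes that reports 1 value) listed for that gene alone, out of 22180 genes measured in this way. Alas2 was reported only by a probe set that is listed for both Alas2 and Apex2, so its value cannot be assigned to 1 of these genes. The study compared 3 genotypes with 4 specimens each on 12 single-channel Affymetrix arrays. Control embryos were Shh+/Cre, Yy1 mutants were Yy1flox/flox with the same Shh+/Cre allele, and Dicer mutants were Dicerflox/flox with Shh+/Cre. All 12 specimens thus carry 1 Shh allele that expresses Cre, which acts in the lung epithelium, and cells without Cre keep the floxed gene. The labels do not say whether a specimen was 1 embryo or a pool, and the p-values measure only the spread between these specimens. The series title asks what epithelial loss of Yy1 does to branching of the lung. The erythroid genes were read to follow blood within the same RNA, and how much other lung cells add to their levels was not tested.

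Red cells carry few kinds of protein in great amounts. Slc4a1 (band 3) exchanges chloride for bicarbonate and anchors the membrane skeleton, Epb42 (protein 4.2) stabilises band 3, Rhag is the Rh-associated glycoprotein, Kel is a membrane endopeptidase that carries the Kell blood group in humans, and Ermap is an erythroid membrane protein of the immunoglobulin superfamily. Hbb-y and Hba-x encode embryonic beta-like and alpha-like globins, which mark primitive red cells from the yolk sac, while the definitive red cells made in the fetal liver use adult globins. Alas2 catalyses the first step of haem synthesis in red cells, and Klf1 is a zinc finger factor that switches on many erythroid genes through CACCC-type sites, often near sites for Gata1. Maturing red cells lose their nucleus and later their RNA, so their transcripts come mainly from reticulocytes, nucleated primitive cells and precursors in the vessels.

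The sequences just before the start sites of both embryonic globin genes and of 2 genes whose probe sets were higher in Dicer mutants are shown so that the members can be compared at the sequence level. They come from RefSeq on GRCm38.p6, which held an entry for 8 of the 9 members (all but Slc4a1), and cover the 250 bases before the annotated start, 5′ to 3′ on the strand of the gene. Capitals mark matches to a GATA motif, AGATAA, or a C-rich motif, CCNCNCCC, searched on both strands.
Kel, chr6:41704326-41704575, minus strand: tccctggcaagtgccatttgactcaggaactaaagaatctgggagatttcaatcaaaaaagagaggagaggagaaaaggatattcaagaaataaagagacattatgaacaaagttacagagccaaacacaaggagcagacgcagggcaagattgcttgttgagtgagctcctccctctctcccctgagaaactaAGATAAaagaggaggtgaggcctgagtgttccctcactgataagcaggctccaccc
Alas2, chrX:150547167-150547416, plus strand: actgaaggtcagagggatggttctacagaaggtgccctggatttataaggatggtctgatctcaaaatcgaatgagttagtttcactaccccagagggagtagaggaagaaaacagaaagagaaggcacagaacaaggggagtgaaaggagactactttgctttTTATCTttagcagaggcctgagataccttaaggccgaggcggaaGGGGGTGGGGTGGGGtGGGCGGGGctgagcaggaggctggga
Hbb-y, chr7:103853208-103853457, minus strand: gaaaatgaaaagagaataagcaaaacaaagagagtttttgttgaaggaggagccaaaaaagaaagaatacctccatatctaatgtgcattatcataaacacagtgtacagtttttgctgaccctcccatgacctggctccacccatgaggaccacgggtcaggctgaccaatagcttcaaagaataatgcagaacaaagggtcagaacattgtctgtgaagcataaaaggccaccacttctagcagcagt
Hba-x, chr11:32276350-32276599, plus strand: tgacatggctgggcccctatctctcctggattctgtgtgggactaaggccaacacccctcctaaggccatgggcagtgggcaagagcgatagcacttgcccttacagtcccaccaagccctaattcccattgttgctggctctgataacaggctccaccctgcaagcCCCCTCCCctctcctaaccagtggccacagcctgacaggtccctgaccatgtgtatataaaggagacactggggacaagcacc
A GATA match was found for 3 of the 8 members with a sequence, namely Kel (first base at -56 from the start), Epb42 (-226) and Alas2 (-86). A match to the C-rich motif was found for 2, Hba-x (-83) and Alas2, whose 4 matches between -42 and -26 overlap one another in part. This motif need not hold the CACCC core and also misses some cores, since ccaccc stands unmarked in Kel, Hbb-y and Hba-x. The GATA motif leaves out TGATAA, which stands unmarked in Kel and Hba-x and, on the opposite strand as TTATCA, in Hbb-y. Among the members whose sequence is not shown, TTATCA also stands in Rhag, Ermap and Klf1. Which members have a match therefore depends on the letters chosen. Of 32851 mouse promoter windows of this length, 9.99% held the GATA motif and 45.9% the C-rich motif. No match says only that these letters are not in this window.

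The array medians lay between 5.99 and 6.08 on the log2 scale, all pairs of arrays correlated at 0.978 or more across probe sets, and 0 pairs were identical. Dicer1 fell by 0.61 (SE 0.0953) in Dicer mutants (limma, Benjamini-Hochberg adjusted p = 0.00127), while the difference of Yy1 in Yy1 mutants was -0.19 (adjusted p = 0.125); both probe sets also read RNA of cells without Cre. Uty, Kdm5d and Eif2s3y, genes of the Y chromosome, read high on 3 mutant arrays: Eif2s3y read 7.99 on Yy1 mutant 2, 7.84 on Dicer mutant 4 and 5.92 on Yy1 mutant 3, against 3.73 to 4.48 on all others. The results below were therefore also computed without these 3 arrays. A difference in the level of a blood gene can come from more or fewer blood cells or from more or less RNA per cell. It can also come from other cells that express the gene, and these cannot be told apart in lung RNA. Levels of different probe sets are not compared with each other, since each has its own brightness.

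Among the membrane genes, Slc4a1 and Kel rose in Dicer mutant lungs, Slc4a1 about 2.03-fold and Kel 1.42-fold, while Rhag, Epb42 and Ermap had positive differences that did not pass the test. None of the 5 differed detectably between Yy1 mutants and controls. A gene was called changed at an adjusted p under 0.05 over all 22180 genes, and 4.78% of all genes were called higher in Dicer mutants than in controls, 3.97% lower, and 6.61% were called in either direction in Yy1 mutants.

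The log2 levels of Slc4a1 were 8.28, 8.18, 8.51 and 8.13 in the controls, 8.14, 8.41, 8.28 and 8.11 in the Yy1 mutants and 9.10, 9.38, 9.66 and 9.05 in the Dicer mutants. All 4 Dicer mutant arrays lay above all 8 others, and the other genotypes overlapped. The difference between Dicer mutants and controls was 1.02 (SE 0.129, 95% interval 0.74 to 1.301, adjusted p = 0.000263, higher in 4 of 4 arrays), and that between Dicer and Yy1 mutants was 1.06 (adjusted p = 0.000293). Between Yy1 mutants and controls it was -0.041, with an interval of -0.32 to 0.24 (adjusted p = 0.919).

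Kel read 5.67, 5.39, 5.71 and 5.66 in the controls, 5.51, 5.49, 5.49 and 5.66 in the Yy1 mutants and 6.06, 6.24, 6.12 and 6.03 in the Dicer mutants. As with Slc4a1, the Dicer mutants did not overlap with either of the other genotypes. Kel was 0.51 (SE 0.0814) above the controls (adjusted p = 0.00155) and 0.58 above the Yy1 mutants (adjusted p = 0.000881), and the Yy1 mutants differed from the controls by -0.069 (interval -0.24 to 0.11, adjusted p = 0.729).

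Rhag, a dim probe set among the lowest 30% of genes by mean level, read 4.62, 4.96, 5.35 and 4.96 in the controls, 4.96, 5.17, 5.09 and 4.81 in the Yy1 mutants and 5.42, 5.32, 5.90 and 5.33 in the Dicer mutants. The Dicer mutants lay above every Yy1 mutant array but overlapped with control 3. The difference from the controls, 0.52 (interval 0.19 to 0.85), was close to that of Kel but had an SE of 0.154 where Kel had 0.0814, and it did not pass the test (adjusted p = 0.0527); without control 3 it was 0.64 (adjusted p = 0.0196). Against the Yy1 mutants it was 0.48 (adjusted p = 0.1003).

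Epb42 and Ermap overlapped between all genotypes. Epb42 ranged from 6.04 to 6.52 in controls, 6.24 to 6.33 in Yy1 mutants and 6.31 to 6.64 in Dicer mutants, and its difference between Dicer mutants and controls was 0.24 (interval 0.034 to 0.45, adjusted p = 0.154). Without control 2, the highest control, the difference was 0.33 (adjusted p = 0.0303). Ermap ranged from 5.96 to 6.21, 5.90 to 6.18 and 6.003 to 6.68 in the same order, with a difference of 0.23 (interval -0.037 to 0.49, adjusted p = 0.302). The highest Ermap value, on Dicer mutant 3, came from the array that was also highest for Slc4a1 and Rhag.

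**Figure D1:**
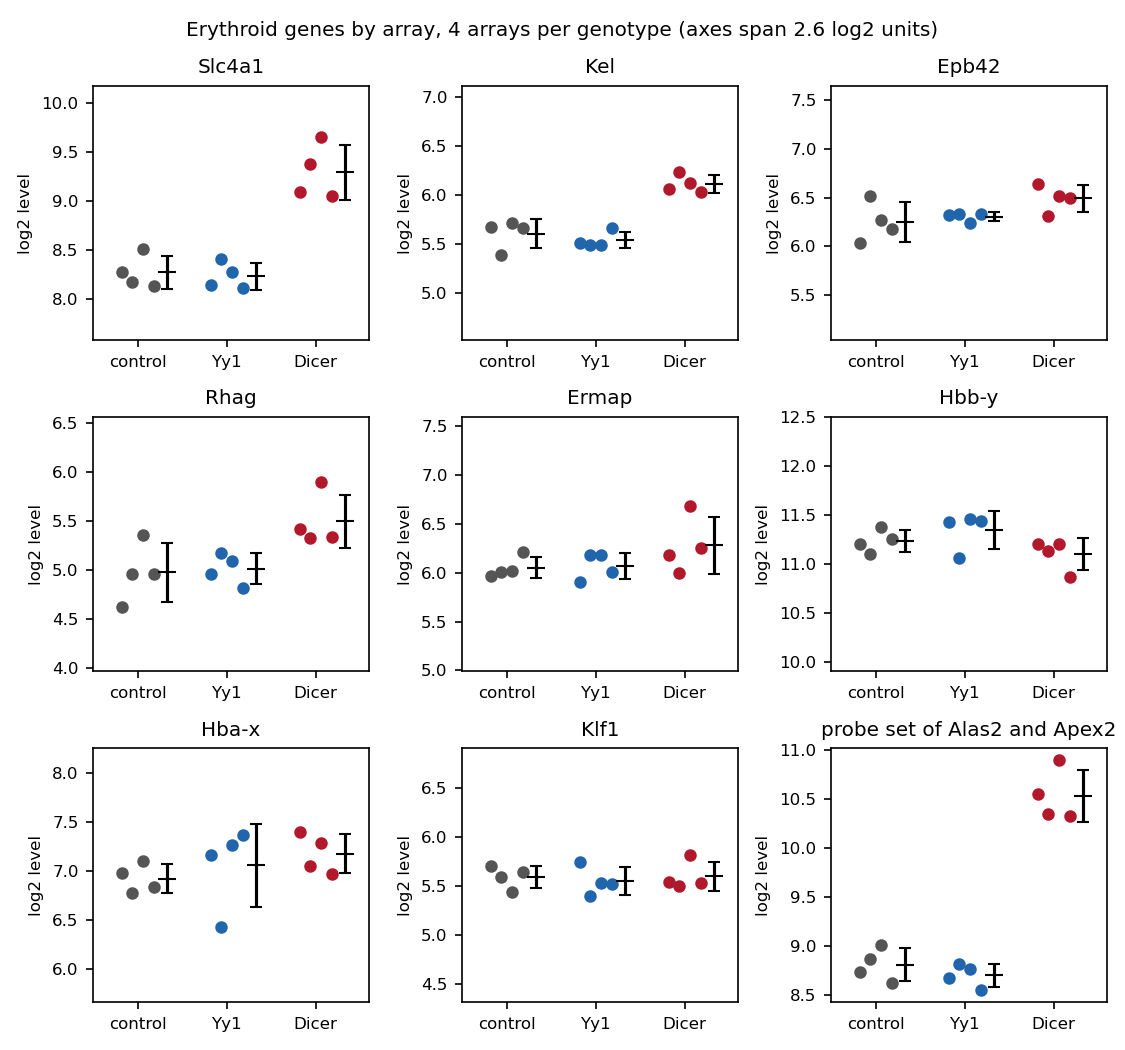
Log2 level (y axis) of the 8 members with their own probe set and of the probe set shared by Alas2 and Apex2, by genotype (x axis). Points are arrays in replicate order, the bar is the mean with the SD (n = 4), and every panel spans the same number of log2 units; Slc4a1, Kel and the Alas2 and Apex2 probe set are higher on all 4 Dicer mutant arrays than on all others.

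Neither embryonic globin passed the test. Hbb-y read 11.21, 11.10, 11.38 and 11.26 in the controls, 11.43, 11.06, 11.46 and 11.44 in the Yy1 mutants and 11.21, 11.14, 11.21 and 10.87 in the Dicer mutants. Its difference between Dicer mutants and controls was -0.13 (SE 0.105, interval -0.36 to 0.095, adjusted p = 0.517), and against the Yy1 mutants it was -0.24 (interval -0.47 to -0.015, adjusted p = 0.246). A rise of the size seen for Slc4a1 lies outside both intervals.

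Hba-x read 6.98, 6.77, 7.10 and 6.83 in the controls, 7.16, 6.43, 7.26 and 7.37 in the Yy1 mutants and 7.40, 7.05, 7.28 and 6.97 in the Dicer mutants. The groups overlapped, and the spread of Hba-x in the Yy1 mutants (SD 0.425) was set by array 2, the lowest of all 12. The difference between Dicer mutants and controls was 0.25 (SE 0.172, interval -0.12 to 0.63, adjusted p = 0.429), an interval that includes the difference of Kel, and between Yy1 mutants and controls 0.14 (interval -0.24 to 0.51, adjusted p = 0.751). Of the other embryonic and minor globins, 4 had a probe set of their own (Hbb-bh1, Hbb-bh2, Hbq1a and Hbq1b, of which Hbb-bh2 and Hbq1a are among the dimmest 30% of genes), and limma called 0 of the 4 in any comparison (0 at an unadjusted p under 0.05 as well); Hbb-bh1, an embryonic beta-like globin, differed by -0.17 (SE 0.283) between Dicer mutants and controls.

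Alas2, the haem gene, was read only through a shared probe set, which had a larger difference in Dicer mutants than any of the 8 other members. The probe set listed for Alas2 and Apex2 read 8.74, 8.87, 9.01 and 8.62 in the controls, 8.67, 8.82, 8.77 and 8.55 in the Yy1 mutants and 10.55, 10.35, 10.90 and 10.33 in the Dicer mutants. The lowest Dicer mutant array lay above the highest of the other 8. In a fit over all 41345 probe sets, added so that probe sets listed for several genes had a value, the difference from the controls was 1.72 (SE 0.129, interval 1.44 to 2.004, adjusted p = 3.795e-05), a 3.30-fold rise, and that from the Yy1 mutants was 1.83 (adjusted p = 2.166e-05). In that fit 2.38% of probe sets were called higher in Dicer mutants than in controls, 1.45% higher than in Yy1 mutants, and 2.99% were called in either direction in Yy1 mutants. Yy1 mutants differed from controls by -0.11 (interval -0.39 to 0.17, adjusted p = 0.778). Apex2, which encodes an endonuclease of base excision repair, also has a probe set of its own, looked up after the value of the shared one was seen. The Apex2 probe set read 7.92, 7.89, 7.83 and 7.84 in the controls, 8.17, 8.07, 8.02 and 8.004 in the Yy1 mutants and 7.79, 7.86, 7.88 and 7.89 in the Dicer mutants, a difference of -0.013 between Dicer mutants and controls (SE 0.0600, adjusted p = 0.926).

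The adult globins, which are no members, share probe sets in the same way and are given because they set the embryonic globins in context. All 3 probe sets listed for Hbb-b1, Hbb-b2 and Hbb-bs, the adult beta globin genes, rose in Dicer mutants. Probe set 2 read 9.66, 9.74, 10.30 and 9.59 in the controls, 10.19, 9.43, 10.26 and 10.17 in the Yy1 mutants and 11.29, 11.29, 11.64 and 11.33 in the Dicer mutants, a difference of 1.57 (SE 0.197) from the controls (adjusted p = 0.000901); probe set 1 rose by 1.35 (adjusted p = 0.00292) and probe set 3 by 0.82 (adjusted p = 0.0248). The call of probe set 3 was lost in 5 of 20 alternatives, without control 1, 2 or 4 or without Dicer mutant 1 or 3 (adjusted p up to 0.0785). Of the 2 probe sets for the adult alpha globins Hba-a1 and Hba-a2, probe set 2 rose by 0.32 (SE 0.0743, adjusted p = 0.0345) and probe set 1 differed by 0.20 (adjusted p = 0.283). Probe set 2 read 12.87 to 13.17 in the controls and 13.33 to 13.41 in the Dicer mutants, close to 13.58, the highest value of the table, and its call was lost under 12 of 20 alternatives (adjusted p from 0.00832 to 0.169). Of the 7 shared probe sets, which also include 1 for Bnip3l and Bnip3l-ps, limma called 0 between Yy1 mutants and controls, and 0 had an unadjusted p under 0.05.

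Klf1 differed least of all members between Dicer mutants and controls. It read 5.70, 5.59, 5.44 and 5.64 in the controls, 5.75, 5.40, 5.53 and 5.52 in the Yy1 mutants and 5.54, 5.50, 5.82 and 5.53 in the Dicer mutants. The difference between Dicer mutants and controls was 0.0027 (SE 0.0941), and its interval of -0.20 to 0.21 leaves out the differences measured for Slc4a1 and Kel (adjusted p = 0.991). Klf1 is dim, with a mean of 5.58, just above the 5.48 that bounds the dimmest 30% of genes and below every array median. Whether a rise of Klf1 RNA was missed at this level was not tested.

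Over the 8 members with their own probe set, limma called 0 in Yy1 mutants against controls (0 at an unadjusted p under 0.05), 2 higher in Dicer mutants against controls (4 at an unadjusted p under 0.05) and 2 higher in Dicer against Yy1 mutants (4, of which Hbb-y was lower). The median difference was 0.027, 0.25 and 0.20 in these comparisons, beside 0.0016, -0.028 and -0.029 over all genes. The share of genes called higher in Dicer than in Yy1 mutants was 3.39% of all genes, and 1.57% were called lower. The Dicer mutants are compared with the same controls as the Yy1 mutants, so these comparisons are not independent of each other. The members were chosen with earlier results of these data known, so their counts are not independent of the data. Counts at an unadjusted p under 0.05, here and below, have no share over all genes beside them.

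**Figure D2:**
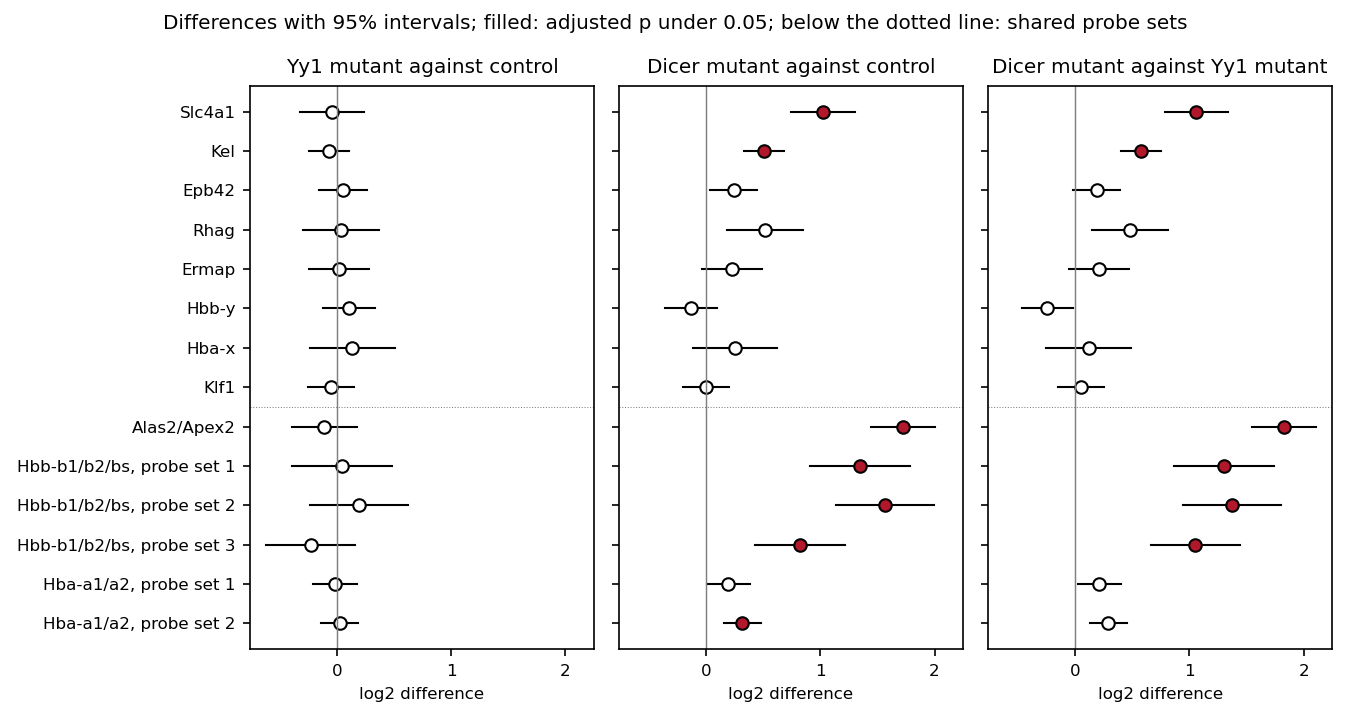
Log2 difference (x axis) with its 95% interval for each member and for the shared probe sets of Alas2 and of the adult globins, in 3 comparisons; filled points have an adjusted p under 0.05. In Yy1 mutants against controls every interval includes 0. In Dicer mutants the adult beta globins and the Alas2 and Apex2 probe set lie to the right and Klf1 stays near 0. Hbb-y lies to the left of 0 in Dicer mutants, and against Yy1 mutants its interval leaves out 0 while its adjusted p is above 0.05.

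To set the roles against each other, each gene was centred on its mean over the 12 arrays and the centred values were averaged by role. The 5 membrane genes averaged -0.17 in the controls (SD 0.106, n = 4), -0.17 in the Yy1 mutants (SD 0.0677) and 0.34 in the Dicer mutants (SD 0.162), and the 4 Dicer mutant arrays, at 0.23 to 0.58, lay above the rest. The 2 embryonic globins averaged -0.061 (SD 0.125), 0.061 (SD 0.307) and 0.00036 (SD 0.173), and the genotypes overlapped. The difference of membrane minus embryonic globin was -0.11 in controls (SD 0.108), -0.23 (SD 0.363) where Yy1 was deleted and 0.34 (SD 0.165) where Dicer was; Yy1 mutant 2 stood apart from its group at 0.31, against -0.48 to -0.37 on the other Yy1 mutant arrays. The centred Alas2 and Apex2 probe set lay between 0.98 and 1.56 on the Dicer mutant arrays and between -0.80 and -0.34 on all others. These averages describe the chosen members and carry no test.

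**Figure D3:**
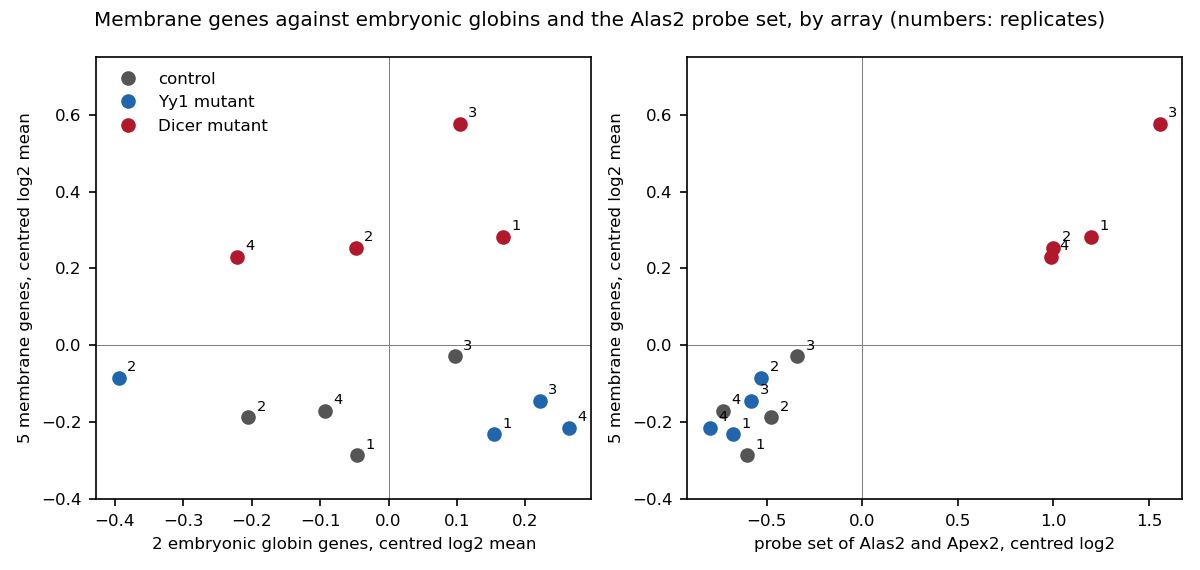
Mean centred log2 level of the 5 membrane genes (y axes) against that of the 2 embryonic globins (left) and of the Alas2 and Apex2 probe set (right); points are arrays, numbered by replicate. The Dicer mutants lie above the others on the left and to the upper right on the right; on the left their sideways position averages Hbb-y and Hba-x, whose differences from controls have opposite signs.

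Further genes of the erythroid programme were read from 5 lists, of which 65 of 78 genes had a probe set of their own. The lists were chosen with earlier results of these data known, so their counts are not independent of the data. Which cells of the lung their RNA came from was not tested, so a difference need not be one of blood. In Dicer mutants against controls 11 of the 65 rose and 3 fell, with a median difference of 0.12. Of all genes 4.78% were called higher and 3.97% lower in that comparison, so the share that fell is near that of all genes. In Yy1 mutants against controls 0 rose and 4 fell, where 2.77% of all genes were called higher and 3.84% lower, with a median of -0.0081. Of the other membrane and skeleton genes, 5 of 15 rose in Dicer mutants: Sptb, which encodes erythroid beta spectrin, by 0.61 (SE 0.101, adjusted p = 0.00200), Cd59a, an inhibitor of complement, by 0.91 (adjusted p = 0.0128), Aqp1, a water channel of red cells that endothelium also makes, by 0.48 (adjusted p = 0.00221), Mpp1 by 0.31 (adjusted p = 0.0200) and Tmod1, a tropomodulin named here after its value was seen, by 0.28 (adjusted p = 0.0434). None of the 15 fell. The call of Mpp1 was lost without control 3 or 4 or Dicer mutant 2 or 3 (adjusted p up to 0.0679), and that of Tmod1 without any of 8 single arrays (up to 0.130). Xk, the partner of Kel in the Kell complex, differed from controls by 0.23 (adjusted p = 0.105) and rose by 0.47 in Dicer against Yy1 mutants (adjusted p = 0.00428), as did Tspan33 by 0.38 (adjusted p = 0.0166, and 0.0594 without Yy1 mutant 3).

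In haem and iron handling 3 of 17 genes rose and 2 fell in Dicer mutants. Slc25a37 (mitoferrin 1), which brings iron into the mitochondria of red cell precursors, ranged from 9.57 to 9.91 in controls, 9.62 to 9.85 in Yy1 mutants and 10.58 to 11.23 in Dicer mutants, a rise of 1.22 (SE 0.124, adjusted p = 4.226e-05). Fech (ferrochelatase), the last enzyme of haem synthesis, ranged from 9.06 to 9.23, 8.84 to 9.20 and 9.98 to 10.41 in the same order and rose by 0.98 (SE 0.102, adjusted p = 5.11e-05). Blvrb, a biliverdin reductase, rose by 0.50 (adjusted p = 0.00198). Abcb10, a mitochondrial transporter, and Slc11a2 (Dmt1), an iron importer, fell by 0.31 each (adjusted p = 0.0362 and 0.0379). Slc11a2 fell by 0.35 in Yy1 mutants too (adjusted p = 0.0253), and its calls were lost on leaving out single arrays, with an adjusted p of up to 0.114 in Dicer mutants (without Dicer mutant 3) and 0.0837 in Yy1 mutants (without Yy1 mutant 1). The call of Abcb10 was lost without control 1, 3 or 4 or Dicer mutant 1, 2 or 4 (up to 0.117). The measured enzymes between Alas2 and Fech did not pass the test in Dicer mutants: Alad differed by 0.21, Urod by 0.22, Cpox by 0.15, Uros by 0.0060 and Ppox by -0.025 (adjusted p 0.177 to 0.972). The transferrin receptor Tfrc, high in dividing precursors, differed by -0.16 (adjusted p = 0.271).

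Among 19 other regulators, Trim10 rose in Dicer mutants by 0.63 (SE 0.0927, adjusted p = 0.000798) and Bcl11a, a repressor of embryonic and fetal globin genes, fell by 0.73 (SE 0.0809, adjusted p = 8.838e-05). Bcl11a read 8.38 to 8.55 in controls, 7.92 to 8.25 in Yy1 mutants and 7.70 to 7.79 in Dicer mutants, so the genotypes did not overlap; it also fell in Yy1 mutants by 0.38 (adjusted p = 0.0122) and differed between the mutants by -0.35 (adjusted p = 0.0217, and up to 0.0726 without Yy1 mutant 1 or 4 or Dicer mutant 1 or 4). The Yy1 call was lost with the mean of its probe sets (-0.20, adjusted p = 0.115) and without the 3 arrays that read high for Y-linked genes (-0.24, adjusted p = 0.192). E2f2 fell by 0.57 in Yy1 mutants (adjusted p = 0.00277, and -0.53 with an adjusted p of 0.0647 without those arrays) and differed by -0.068 in Dicer mutants (adjusted p = 0.748). Gata1, the main erythroid factor, differed by -0.014 in Dicer mutants (SE 0.104, adjusted p = 0.958) and is among the dimmest 30% of genes, and Epor, the erythropoietin receptor, by -0.00038 (SE 0.115, adjusted p = 0.999). Between the mutants, Zfpm1 (Fog1, a cofactor of Gata1) and Sox6 were higher in Dicer mutants by 0.29 and 0.30 (adjusted p = 0.0307 and 0.0382), calls that were lost without any of 5 and 7 single arrays (adjusted p up to 0.0929 and 0.120).

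Of 10 red cell enzymes, 2 rose in Dicer mutants against controls and 0 fell. Ube2l6 rose by 0.995 (SE 0.153, adjusted p = 0.00114), and Bpgm, which makes the haemoglobin effector bisphosphoglycerate, by 0.53 (adjusted p = 0.0380, and up to 0.104 without control 1, 3 or 4, Yy1 mutant 4 or Dicer mutant 2 or 3). Car2 (carbonic anhydrase 2) fell by 0.37 in Yy1 mutants (adjusted p = 0.00419, and -0.36 with an adjusted p of 0.0643 without the 3 arrays) and differed by 0.21 in Dicer mutants (adjusted p = 0.0735). Between the mutants, 5 of the 10 were higher in Dicer mutants: Car2, Cat, Ube2l6, Bpgm and Gclm, with differences of 0.45 to 0.99. Over all 5 lists, 16 of the 65 genes were higher and 1 lower in Dicer than in Yy1 mutants, beside 3.39% and 1.57% of all genes. Without the 3 arrays high for Y-linked genes, 10 of the 65 genes were called in Dicer mutants against controls, 9 between the mutants and 0 in Yy1 mutants against controls, where that fit called 976, 435 and 606 of the 22180 genes; the last comparison had 12 genes at an unadjusted p under 0.05 on all arrays.

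**Figure D4:**
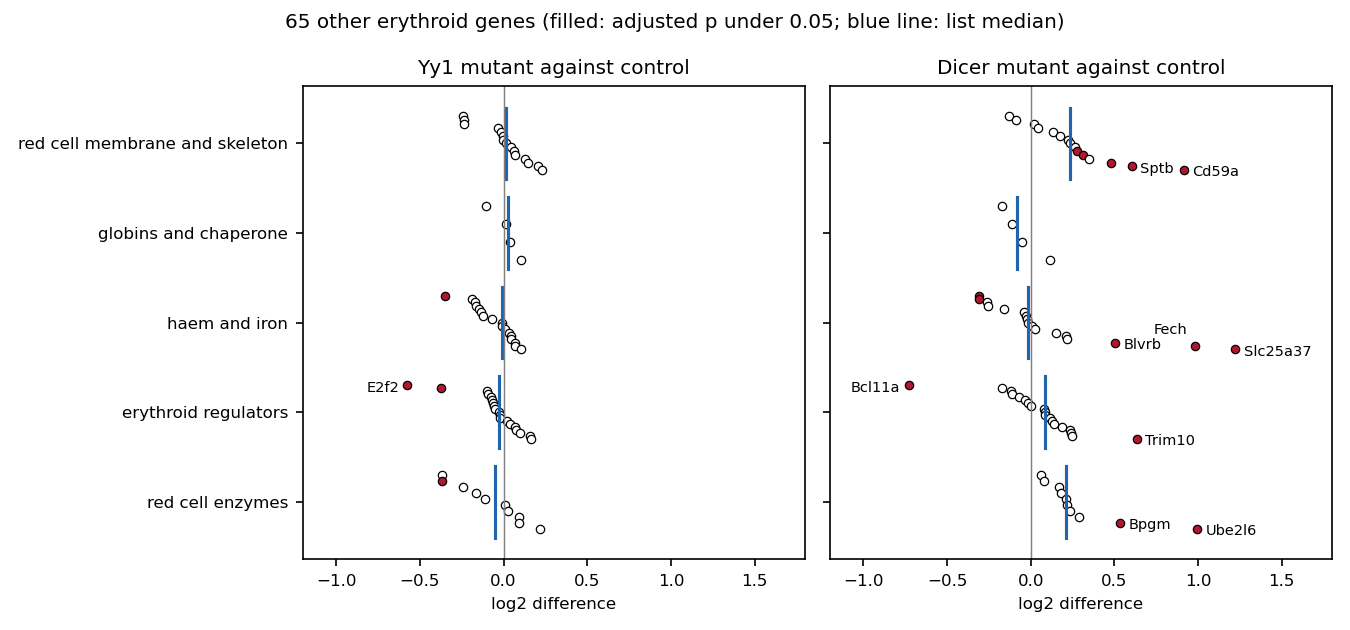
Log2 difference (x axis) of 65 other erythroid genes in 5 lists (y axis) in Yy1 and Dicer mutants against the same controls; filled points have an adjusted p under 0.05, blue lines are list medians, and called genes beyond 0.5 are named. Slc25a37, Ube2l6, Fech and Cd59a lie farthest to the right in Dicer mutants, and Bcl11a farthest to the left.

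Markers of other blood, vessel and organ cells moved in the same specimens, and their part in the erythroid results was not tested. In Dicer mutants against controls, 5 of 10 megakaryocyte and platelet markers, 11 of 13 macrophage markers, 9 of 14 endothelial markers and 3 of 12 mast cell markers rose, and 0 of any of these lists fell. Of all genes 4.78% were called higher and 3.97% lower in Dicer mutants, and 2.77% and 3.84% in Yy1 mutants. These marker lists too were chosen with earlier results of these data known. Sums over each list are given to compare genotypes only. The brightest probe sets weigh most in a sum, so a sum need not speak for each marker. The log2 of the summed platelet markers was 9.75 to 9.94 in controls, 9.83 to 9.93 in Yy1 mutants and 10.23 to 10.35 in Dicer mutants. For endothelium it was 13.14 to 13.40, 13.19 to 13.48 and 13.59 to 13.66, and for mast cells 10.04 to 10.36, 10.25 to 10.47 and 10.77 to 11.19. The mast cell sum does not speak for all 12 markers. From controls to Dicer mutants the mean of Hdc went from 5.63 to 9.26, Kit from 9.07 to 9.57 and Cpa3 from 7.49 to 8.19. Ms4a2 had a mean of 4.48 in both, Fcer1a 2.93 and 2.65, and Tpsab1 5.43 and 5.51. Macrophage markers were high in both mutants, at 10.96 to 11.09 in controls, 11.40 to 11.62 in Yy1 mutants, where 9 of 13 rose, and 11.53 to 11.79 in Dicer mutants. Erythroid precursors are abundant in the fetal liver, and whether liver cells added to the specimens was not tested. Of 13 hepatocyte markers limma called only Afp in Dicer mutants, higher by 2.77, while 3, Afp among them, had an unadjusted p under 0.05. Albumin (Alb) differed by 0.82 (adjusted p = 0.147) and Apoa1 by 0.21 (adjusted p = 0.324). Alb read 5.41 to 5.84 in controls and 5.58 to 7.75 in Dicer mutants. The summed hepatocyte markers, which include Afp, lay at 9.11 to 9.35, 9.23 to 9.34 and 9.70 to 10.68. Limma called 0 of 10 neutrophil and 0 of 9 heart muscle markers (1 of each at an unadjusted p under 0.05); the neutrophil sums were 8.80 to 9.12, 8.90 to 9.05 and 8.81 to 9.05, and the heart sums 10.36 to 10.47, 9.72 to 10.90 and 9.66 to 11.50. Of 14 lung epithelium markers 1 rose and 9 fell in Dicer mutants and 11 fell in Yy1 mutants, with sums of 13.29 to 13.62 in controls, 12.49 to 12.67 in Yy1 mutants and 13.06 to 13.27 in Dicer mutants. The lowest value of the whole table was 1.10, so a value above 0 does not show by itself that a marker was detected.

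Within genotypes, the embryonic globins varied together. For all 28 pairs of the 8 members, values were taken as deviations from the genotype mean, so that the difference of the Dicer mutants does not enter. Hbb-y and Hba-x had a Pearson r of 0.887 (permutation p = 0.00154, adjusted p = 0.0431 over the 28 pairs) and a Spearman rho of 0.860 (permutation p = 0.00136, adjusted p = 0.0381) over the 12 arrays, and r was 0.765 without the 2 arrays farthest from the median. On the plain levels their r was 0.549 (permutation p = 0.0639, adjusted p = 0.256) and rho 0.622 (permutation p = 0.0344, adjusted p = 0.220). No other pair passed on deviations. Slc4a1 and Rhag had an r of 0.729 on deviations (adjusted permutation p = 0.294), and 0.661 over the 8 control and Yy1 mutant levels (exact permutation p = 0.0722, adjusted over 3 pairs 0.217). Slc4a1 and Kel, both raised in Dicer mutants, had an r of 0.270 on deviations (adjusted permutation p = 0.986) and 0.144 over those 8 arrays (exact permutation p = 0.715). On plain levels the pairs of Slc4a1 with Kel and with Rhag passed (adjusted permutation p = 0.00434 and 0.00336), but the Dicer mutants form a separate cluster there, so no relation is read from the pooled levels. Of the 10 pairs of membrane genes, 6 had a positive r of the deviations, and of the 10 pairs of a membrane gene with an embryonic globin, 4 did.

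The low embryonic globin values came from particular arrays. Hbb-y was lowest within its genotype on Yy1 mutant 2 (11.06, against 11.43 to 11.46 on the others) and Dicer mutant 4 (10.87, against 11.14 to 11.21), and Hba-x was lowest on the same 2 arrays. These are also the arrays with the highest Y-linked levels, and Xist, the RNA of the inactive X chromosome, read 8.55 and 9.64 on them against 11.11 to 11.50 on the other 10. The third array of this kind, Yy1 mutant 3, had 11.46 for Hbb-y and 11.11 for Xist. The genes whose deviations were most like those of Hbb-y, among 15519 genes outside the dimmest 30%, were Il17f (r = 0.951), Prokr2 (0.911), Acp5 (0.909), Xist (0.908) and Necab3 (0.903) over 12 arrays. For Slc4a1 they were Zfp202 (0.882), Shroom3 (0.855), Tmem182 (0.835), Dennd10 (0.834) and D030047H15Rik (0.834). With this many genes and 12 arrays these are descriptions only. Without the 3 arrays, Slc4a1 was 1.105 and Kel 0.54 above the controls (adjusted p = 0.00141 and 0.0112), Hbb-y differed by -0.051 (adjusted p = 0.805), and the Alas2 and Apex2 probe set by 1.79 (adjusted p = 0.00122).

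**Figure D5:**
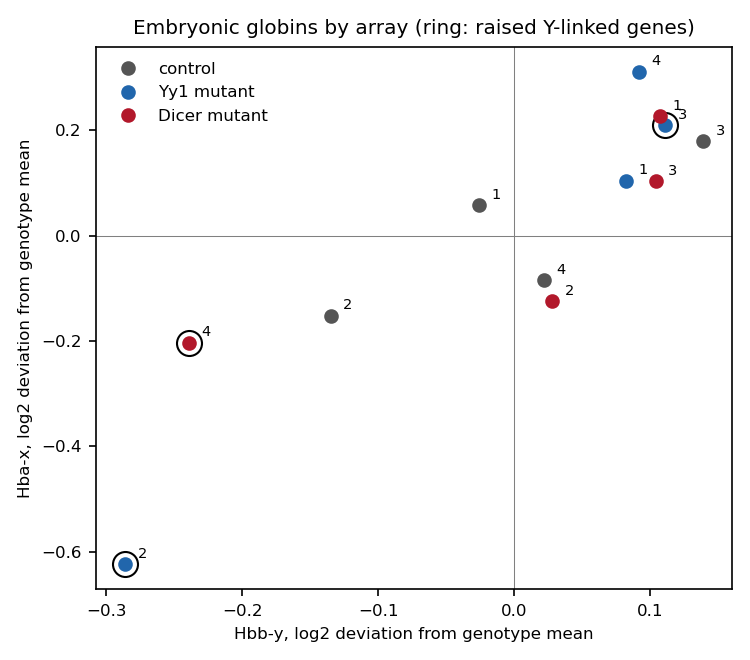
Deviation of Hba-x (y axis) against that of Hbb-y (x axis) from the mean of the genotype, in log2 units; points are the 12 arrays, numbered by replicate, and rings mark the 3 arrays high for Y-linked genes. Yy1 mutant 2 and Dicer mutant 4 lie at the lower left, and Yy1 mutant 3 lies among the others.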

How the data were processed

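Total RNA of 12 E14.5 mouse lung specimens was measured on single-channel Affymetrix arrays, per the labels. The authors deposited log2 values; base 2 is inferred from their range (1.10 to 13.58). How they were summarised and normalised, with which software, and the array build: not given in the sources used here. Of 41345 probe sets, 23521 were listed with 1 symbol and 1814 with several. The probe set with the highest mean stood for a gene (22180 genes). The 3 genotypes were fitted in 1 model with limma 3.58.1 in R 4.3.3 (9 residual degrees of freedom, two-sided, Benjamini-Hochberg over all genes), tested on simulated data. All probe sets were fitted in the same way for those listed for several genes, which was chosen after seeing the data. Correlations used 100000 resamples (within genotypes for deviations), and all 40320 orders for 8 arrays. Tables used Python 3.11.15, pandas 2.3.3 and numpy 2.4.6, plots matplotlib 3.10.9. Motifs were searched in RefSeq sequences (GRCm38.p6). Named genes were the members, at most 6 called genes per list with the smallest p, and the 5 genes most alike to Slc4a1 and to Hbb-y; other genes named, such as uncalled haem enzymes, Tfrc, Gata1, Epor, Hbb-bh1, Alb and Apoa1, were chosen for their known roles after their values were seen. Alternatives were quantile normalisation, equal medians, removal of the dimmest 30%, the mean of all probe sets, an intensity trend with a robust prior, only the genotypes compared, array weights, a replicate block, each array left out, and 3 arrays left out together. The members and lists were chosen with earlier results of these data known. The number of arrays limits the precision. The Apex2 probe set was looked up after the data were seen.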

Additional observations from a re-analysis of the deposited data

Results flagged for a closer look

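Among 45 groups of 4 arrays (8 members and 7 shared probe sets in 3 genotypes), 8 held an array that stood apart from the other 3 by a gap above Dixon's 95% critical value; chance gives about 1 in 20 groups. Kel was low on control 2 (5.39, the nearest other at 5.66) and high on Yy1 mutant 4 (5.66, nearest 5.51). Epb42 was low on Yy1 mutant 3 (6.24, nearest 6.32). Rhag (5.90, nearest 5.42) and Klf1 (5.82, nearest 5.54) were high on Dicer mutant 3, as was adult beta globin probe set 2 (11.64, nearest 11.33). Hbb-y (11.06, nearest 11.43) and the same adult beta globin probe set (9.43, nearest 10.17) were low on Yy1 mutant 2.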

How the results depend on the processing

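Of 501 recomputed differences of the members, 473 kept their direction and their side of the threshold, 7 passed it newly and 21 turned in sign; all that turned were differences that did not pass the test. The calls of Slc4a1 and Kel in Dicer mutants held in all 21 alternatives (adjusted p up to 0.00218 and 0.0112 against controls), and that of the Alas2 and Apex2 probe set in all 20. Rhag against controls passed in 5 of 20 alternatives (adjusted p 0.0192 to 0.149). Same-numbered arrays of different genotypes had deviations correlated at -0.161 to 0.190. Of 4 pairs each, 2 were over 0.1 for Yy1 mutants with controls, 1 for Dicer mutants with controls and 0 between the mutants. This mixed result does not settle whether the numbers pair the arrays, and the main fit took them as unpaired. With the replicate block 1301, 1848 and 997 genes were called (1465, 1940 and 1101 without it), and the members called were 0, 3 and 3. Rhag then passed against controls (adjusted p = 0.0192) and Yy1 mutants (0.0387). The differences that turned are given as the range with 1 array left out. In Yy1 mutants against controls it was -0.098 to 0.036 for Slc4a1, -0.017 to 0.14 for Epb42, -0.082 to 0.16 for Rhag, -0.019 to 0.074 for Ermap, -0.12 to 0.00090 for Klf1, -0.089 to 0.025 and -0.035 to 0.064 for adult alpha globin probe sets 1 and 2, and -0.079 to 0.14 for adult beta globin probe set 1. Array weights gave -0.092 for Rhag and 0.020 for Klf1. Without the 3 arrays high for Y-linked genes the values were -0.087 for Rhag, -0.093 for Ermap, 0.035 for Klf1, and 0.061 and -0.00061 for the adult alpha globins. Quantile normalisation gave -0.050 and equal medians -0.0090 for alpha globin probe set 2. In Dicer mutants Klf1 ranged from -0.072 to 0.039 against controls. Against Yy1 mutants Klf1 ranged from -0.023 to 0.12 and was -0.0092 without the 3 arrays, and Hba-x ranged from -0.089 to 0.22 and was -0.0056 with array weights and -0.020 without the 3 arrays. The cause was not tested.

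Genes called fell to 606 (Yy1 mutants against controls), 976 (Dicer mutants against controls) and 435 (between the mutants) without the 3 arrays, a fit with fewer samples. With 1 array left out they ranged from 1020 to 1455, 1275 to 1991 and 726 to 1180, with the lowest counts of the last comparisons without Dicer mutant 4, and array weights gave 1806 between the mutants. Other erythroid genes called were 3 to 6, 9 to 15 and 14 to 18 with 1 array left out (4, 14 and 17 with all arrays), the 9 without Dicer mutant 2. They were 7 in Yy1 mutants with an intensity trend and a robust prior, 22 in Dicer mutants without the dimmest 30% and 22 with array weights, and 0 and 9 (between the mutants) without the 3 arrays. Of 28 pairs of members 2 passed on levels, 1 on deviations and 0 on levels without the 2 farthest arrays. On levels pooled over genotypes, where the Dicer mutants form a separate cluster, r without those arrays was 0.861 for Slc4a1 and Kel and 0.773 for Slc4a1 and Rhag (adjusted permutation p = 0.112 for both). On deviations over all 12 arrays r was 0.270 and 0.729 for these pairs and 0.887 for Hbb-y and Hba-x. Without the 2 arrays farthest on deviations, r was 0.319 for Slc4a1 and Rhag and 0.765 for Hbb-y and Hba-x, given with no p. Without the 3 arrays all 3 adult beta globin probe sets lost their call between the mutants (adjusted p 0.0510 to 0.0599) in a fit with fewer arrays, while the differences were 1.45, 1.23 and 1.21, against 1.31, 1.37 and 1.05 with all arrays.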
